A study of Mus musculus with 5 samples.

Results

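The genes described here encode the AP-1 transcription factors *Fos*, *Fosb*, *Fosl1*, *Fosl2*, *Jun*, *Junb*, *Jund*, *Atf3* and *Batf*, measured in mouse dorsal skin. Every probe set that the platform annotation assigns to 1 of these genes alone was taken, with no filter on its values. The family itself was chosen with earlier results of these data known. All 9 genes had such a probe set, 13 probe sets in all, among 18194 genes and 45037 probe sets on the array. The study profiled 5 mice at postnatal day 23, each on its own Affymetrix array, and asked which genes differ in *Clock* mutant skin shortly before its hair growth falls behind. The groups were 2 *Clock* mutant mice and 3 wild-type (WT) littermates, all staged by histology as telogen, the resting phase of the hair cycle. One mutant, replicate 1, was a male, and the remaining 4 mice were females. The mice had a C57BL/6J background per the study's methods. The *Clock* mutation is carried by every cell of the animal and yields a CLOCK protein with reduced transcriptional activity. The labels do not give the zygosity of these mutants (the study's hair staging names its *Clock* mutants as *Cl/Cl*), and the time of day at which this skin was taken is not given in the sources used here. Whole skin was measured, so fewer cells of a type and less RNA per cell cannot be told apart.

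AP-1 is a family of dimers built from basic leucine zipper (bZIP) proteins. Jun proteins pair with each other or with Fos proteins, and ATF and BATF proteins pair mainly with Jun proteins. The dimers bind short sites in DNA of the form TGANTCA, or the longer cAMP response element TGACGTCA. *Fos*, *Fosb*, *Jun*, *Junb* and *Atf3* are immediate early genes, whose transcription starts within minutes of growth factor, cytokine or stress signals, and *Jund* is expressed more steadily. In skin, AP-1 proteins act in keratinocyte proliferation, epidermal differentiation and inflammation.

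Before the values, promoter sequences of 6 members are printed, because 4 of these genes (*Atf3*, *Jun*, *Junb* and *Fosb*) had the lowest values in mutant skin relative to WT among tested probe sets, *Fos* is the founding member of the family and *Batf* was the member that differed least. Each run is the 150 bases before the annotated start in RefSeq (build GRCm38.p6), written 5′ to 3′ on the strand of the gene. The start used for *Fosb* lies inside the gene's annotated span, so 73 of its 150 printed bases are within the gene, against 0 for the other 5. Capitals mark TGACG, the core of the cAMP response element (CGTCA where it lies on the opposite strand), and, in *Jun*, the related TGACATCA.
*Atf3*, minus strand, chr1:191183334-191183483: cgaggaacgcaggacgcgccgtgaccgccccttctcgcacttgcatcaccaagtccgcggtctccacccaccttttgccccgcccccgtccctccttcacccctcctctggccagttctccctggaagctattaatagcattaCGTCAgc
*Jun*, minus strand, chr4:95052223-95052372: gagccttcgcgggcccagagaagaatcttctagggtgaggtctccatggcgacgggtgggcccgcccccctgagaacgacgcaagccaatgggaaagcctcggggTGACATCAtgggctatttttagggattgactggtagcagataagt
*Junb*, minus strand, chr8:84978749-84978898: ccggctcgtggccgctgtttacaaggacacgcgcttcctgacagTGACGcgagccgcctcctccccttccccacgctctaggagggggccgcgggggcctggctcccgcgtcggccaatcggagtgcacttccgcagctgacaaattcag
*Fosb*, minus strand, chr7:19310046-19310195: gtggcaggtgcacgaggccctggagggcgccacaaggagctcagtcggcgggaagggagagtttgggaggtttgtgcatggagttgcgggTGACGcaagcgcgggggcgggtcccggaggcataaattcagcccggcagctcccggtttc
*Fos*, plus strand, chr12:85473740-85473889: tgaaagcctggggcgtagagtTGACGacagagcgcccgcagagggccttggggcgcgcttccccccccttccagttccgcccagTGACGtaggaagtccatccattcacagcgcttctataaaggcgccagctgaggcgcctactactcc
*Batf*, plus strand, chr12:85686570-85686719: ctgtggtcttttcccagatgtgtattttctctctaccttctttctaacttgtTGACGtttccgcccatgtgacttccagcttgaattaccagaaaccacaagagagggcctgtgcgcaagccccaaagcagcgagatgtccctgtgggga

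Windows of 300 bases (250 before and 50 after the start) were searched on both strands for 8 of the 9 members. The exception was *Fosl1*. Sites farther upstream were not searched, so the absence of a motif holds for these windows only. TGACG lay in the windows of 5 members, *Fos*, *Fosb*, *Junb*, *Atf3* and *Batf*, against 20.8% of 32851 windows over all genes. *Fos* held it at both positions -129 and -66 from the start and *Atf3* at -7 on the opposite strand. TGACATCA lay in the window of *Jun* alone, at -45, against 3.62% of all windows. Matches to TGACGTCA (1.79% of all windows; it contains TGACG), to the AP-1 site TGANTCA (7.81%), to the canonical E-box CACGTG bound by CLOCK and BMAL1 (7.15%) and to the CArG box bound by SRF (1.63%) were found in 0 of the 8 windows. The motifs were chosen after these promoters were read, so the shares over all windows cannot show an excess in the members. These matches describe letters only. The member printed as the least different, *Batf*, shared TGACG with members that lay lower in the mutants.

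The values are MAS5 signal intensities, on a linear scale and scaled alike on every array. Differences are on the log2 scale, *Clock* mutant minus WT, with standard errors (SE) and 95% intervals from limma fitted over 27022 probe sets, and p-values are two-sided. Probe sets with a mean log2 intensity equivalent to under 56.7 were not tested. Of the 13 AP-1 probe sets 11 were tested, which covered all 9 genes. Markers of epidermis and dermis were bright on all arrays, with intensities of 9794 to 11323 for the basal keratin *Krt14* and of 19368 to 22198 for the collagen gene *Col1a1*. Apart from hair genes, the marker lists of 7 cell types had median differences of -0.11 to 0.12 and no gene past the adjusted threshold by limma. At an unadjusted p under 0.05, 3 of their genes differed, the suprabasal *Krt1* (0.31) and *Flg* (-0.26) and the adipocyte gene *Fabp4* (-0.18), and their part in the AP-1 values was not tested. Hair genes of the growth phase (*Krt25*, *Krt27*, *Krt71* and *Tchh*) stood apart in the male mutant, with a median of 3.67 above the WT mean on the log2 scale, against 1.02 in *Clock* mutant replicate 2 and -0.74 to 1.26 in WT. All 4 of these genes were higher in the mutants at an unadjusted p under 0.05, 0 of 4 after adjustment, and their summed intensity was 1036 to 6371 in mutant and 327.4 to 1147 in WT skin. The ratio of 3' to 5' signal of the pyruvate carboxylase control was 54.1 on that array and 19.1 to 28.1 on the other 4. For the transferrin receptor control it was 14.3 in WT replicate 3, 11.5 in WT replicate 1 and 7.71 to 8.09 on the other arrays, and for beta-actin and *Gapdh* it was 1.14 to 1.23 and 0.86 to 1.05 on all 5.

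AP-1 genes were, for the most part, lower in *Clock* mutant than in WT skin by less than 2-fold, and no member passed the threshold after adjustment over all probe sets. Among tested probe sets, the 4 largest differences were in *Atf3*, *Jun*, *Junb* and *Fosb*, at -0.71 to -0.62 on the log2 scale, where WT intensities were 1.54 to 1.64 times those of the mutants. Of the 11 tested probe sets 10 had a negative difference, and of all tested probe sets 53.5% did. The median over the 11 was -0.34, beside -0.02 over all tested probe sets. *Fosl1* and *Batf* showed little difference, and after quantile normalization or median centring *Fosl1* had a small positive one.

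**Figure D1:**
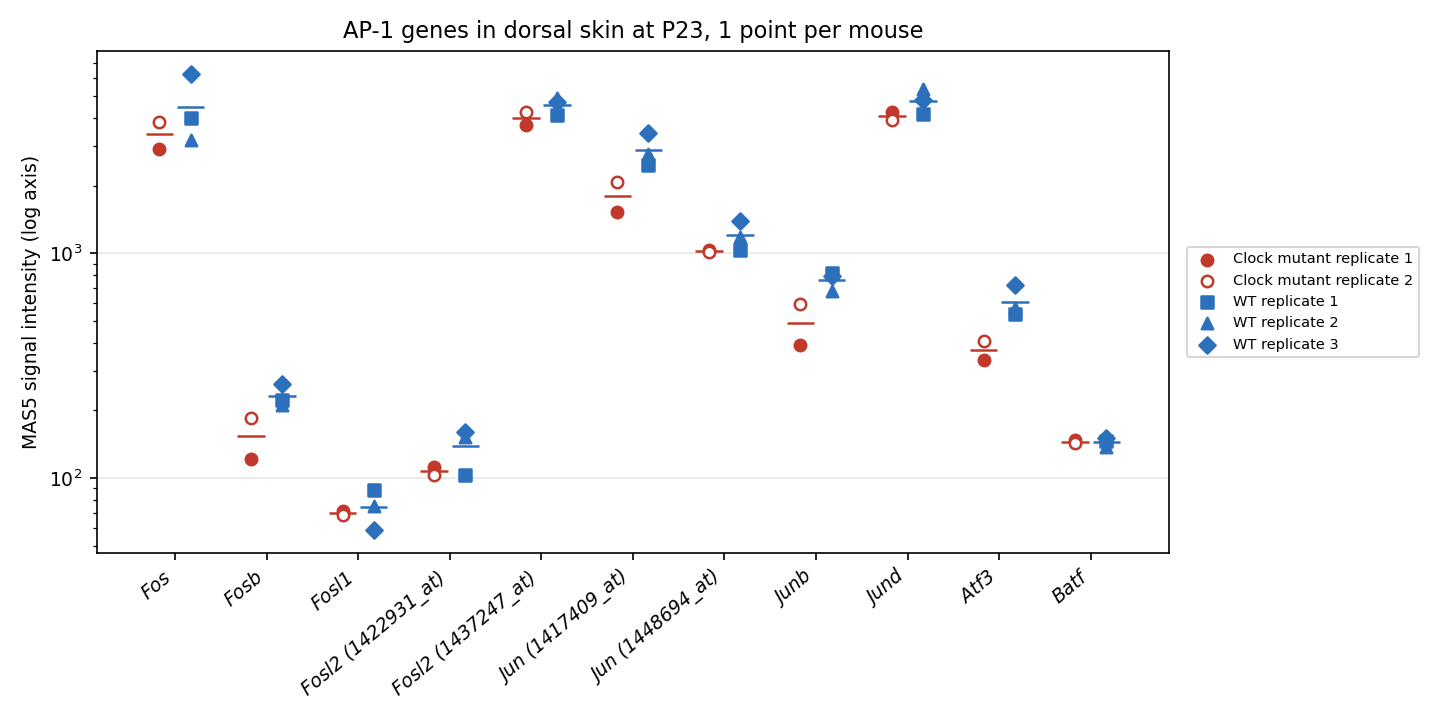
MAS5 signal intensity (vertical log axis) of the 11 tested AP-1 probe sets (horizontal axis), with 1 point per mouse; red circles are *Clock* mutant arrays (filled, replicate 1, the male), blue symbols are WT arrays and bars are group means. Both mutants lie below every WT mouse for *Fosb*, *Junb*, *Atf3* and both *Jun* probe sets; heights of different probe sets are not comparable with each other.

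Among the Jun family, *Jun* (Entrez 16476) encodes c-Jun, the partner of Fos proteins and an activator of many growth genes. At probe set 1417409_at the *Clock* mutants, replicates 1 and 2, had intensities of 1521 and 2067, and the WT mice, replicates 1, 2 and 3, had 2473, 2758 and 3419. The groups did not overlap, *Clock* mutant replicate 1 was the lowest mouse and WT replicate 3 the highest. The means were 1794 ± 386 (SD, n = 2) and 2883 ± 485 (SD, n = 3). The log2 difference was -0.69 (SE 0.159, 95% interval -1.05 to -0.33, unadjusted p = 0.00189, adjusted p = 0.226 by limma). At the other *Jun* probe set, 1448694_at, intensities were 1029 and 1013 in the mutants and 1031, 1185 and 1392 in WT skin. Both mutants were again below every WT mouse, but WT replicate 1 exceeded *Clock* mutant replicate 1 only narrowly. The difference there was -0.23 (95% interval -0.52 to 0.07, adjusted p = 0.556 by limma), so the probe sets of *Jun* shared the direction, and whether they differ from each other was not tested. Averaged over both, *Jun* was at -0.46 (adjusted p = 0.317 by limma).

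*Junb* (Entrez 16477) encodes a Jun protein that can restrain c-Jun and that acts in epidermal and immune homeostasis. Its intensity was 389.4 and 592.0 in the mutants and 817.3, 679.8 and 789.3 in WT skin. The groups were separate, and the mutants differed from each other by more (0.60 on the log2 scale) than the WT mice did (0.27). The means were 490.7 ± 143 (SD, n = 2) and 762.1 ± 72.6 (SD, n = 3). The log2 difference was -0.66 (SE 0.177, 95% interval -1.06 to -0.26, unadjusted p = 0.00462, adjusted p = 0.288 by limma). *Junb* was at -0.96 when *Clock* mutant replicate 2 was left out, which leaves the male as the only mutant. Without the male, *Clock* mutant replicate 1, it was at -0.36.

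*Jund* (Entrez 16478), the Jun gene expressed most steadily across cell states, had intensities of 4230 and 3913 in the mutants and 4145, 5353 and 4800 in WT skin at probe set 1449117_at. WT replicate 1 lay between the mutants. The difference was -0.22 (95% interval -0.46 to 0.02, adjusted p = 0.495 by limma). Its other probe set, 1440265_at, was too dim to test, at 33.9 and 61.1 in the mutants and 24.1 to 57.7 in WT skin, with overlapping groups.

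Of the tested probe sets of the Fos family, that of *Fosb* (Entrez 14282) had the largest difference. FosB is a partner of Jun proteins that is induced together with c-Fos. Its intensity was 121.6 and 185.8 in the mutants and 222.0, 211.2 and 262.8 in WT skin, again without overlap and with *Clock* mutant replicate 1 lowest and WT replicate 3 highest. The means were 153.7 ± 45.4 (SD, n = 2) and 232.0 ± 27.2 (SD, n = 3). The difference on the log2 scale was -0.62 (SE 0.217, 95% interval -1.11 to -0.13, unadjusted p = 0.019, adjusted p = 0.376 by limma). Without *Clock* mutant replicate 1 it was -0.31 (unadjusted p = 0.181 by limma).

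*Fos* itself (Entrez 14281), the most often used marker of immediate early induction, varied more among WT mice than between the genotypes. Its intensity was 2916 and 3843 in the mutants and 3991, 3178 and 6293 in WT skin. WT replicate 2 lay between the mutants, and WT replicate 3 stood well above the other 4 mice. The WT values spanned 0.99 on the log2 scale, the widest span among tested members, and the difference of -0.36 (95% interval -0.91 to 0.18, adjusted p = 0.607 by limma) was -0.09 without WT replicate 3.

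*Fosl2* and *Fosl1* encode Fra-2 and Fra-1, Fos proteins that lack the strong activation domain of c-Fos. *Fosl2* (Entrez 14284) at probe set 1437247_at had intensities of 3733 and 4256 in the mutants and 4122, 4897 and 4726 in WT skin, with overlap. The difference was -0.20 (95% interval -0.42 to 0.02, adjusted p = 0.503 by limma). Probe set 1422931_at had the same sign (-0.34, 95% interval -0.89 to 0.21), with intensities of 103.4 to 160.1 over the 5 arrays. *Fosl1* (Entrez 14283) was dim, with 71.8 and 68.6 in the mutants inside the WT values of 88.9, 74.9 and 58.6 (difference -0.06, 95% interval -0.69 to 0.57, adjusted p = 0.957 by limma). Its other probe set, 1417488_at, lay at 4.6 to 31.0 with overlapping groups (difference -1.17) and was too dim to test.

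*Atf3* (Entrez 11910), a stress-induced factor that often acts as a repressor, had the largest difference among the tested probe sets. Its intensity was 336.0 and 405.4 in the mutants and 535.8, 568.1 and 723.7 in WT skin. The groups did not overlap, and the order of the mice was that of *Jun* at 1417409_at: the male mutant, the female mutant, then WT replicates 1, 2 and 3. The means were 370.7 ± 49.1 (SD, n = 2) and 609.2 ± 100 (SD, n = 3). The difference on the log2 scale was -0.71 (SE 0.161, 95% interval -1.07 to -0.35, unadjusted p = 0.00164, adjusted p = 0.216 by limma), and it was still -0.57 (unadjusted p = 0.0157 by limma) among the 4 female mice.

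*Batf* (Entrez 53314), a factor of lymphoid and myeloid cells that pairs with Jun proteins and lacks an activation domain, was nearly level. Its intensity was 147.1 and 143.4 in the mutants and 146.6, 137.9 and 150.2 in WT skin (difference 0.00, 95% interval -0.41 to 0.41, adjusted p = 0.995 by limma). All 5 mice lay within 0.12 on the log2 scale of each other. The pan-leukocyte gene *Ptprc*, at 1730 and 1706 in the mutants and 1633 to 1930 in WT skin, overlapped between the groups too. Of the 4 leukocyte markers 0 had an unadjusted p under 0.05, and their summed intensity was 2681 to 2960 in mutant and 2690 to 3147 in WT skin. All 4 had a negative difference, beside 53.5% of all tested probe sets, with a median of -0.05. *Itgam* was the marker without overlap, narrowly, at 192.5 and 170.1 in the mutants and 192.6 to 262.1 in WT skin (difference -0.27).

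**Figure D2:**
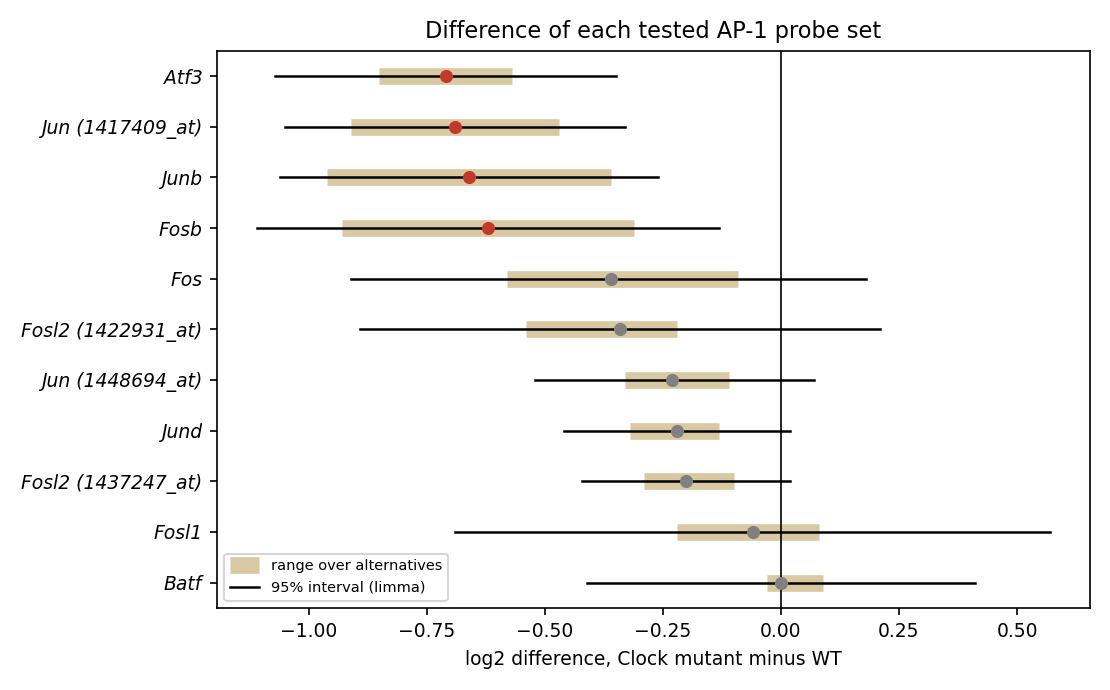
Log2 difference between *Clock* mutant and WT skin (horizontal axis) for each tested AP-1 probe set (vertical axis), with the 95% interval from limma as a line and the range of the difference over the alternative analyses as a tan bar; red points had an unadjusted p under 0.05. *Atf3*, *Jun* (1417409_at), *Junb* and *Fosb* lie between -0.71 and -0.62 with tan bars wholly below 0, and *Fosl1* and *Batf* have bars that cross it.

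By limma, 0 of the 11 AP-1 probe sets passed the adjusted threshold of 0.05, which 24 of 27022 probe sets (0.0888%) passed. At an unadjusted p under 0.05, 4 of the 11 were lower in the mutants, beside 6.71% of all tested probe sets, and 0 were higher, beside 4.09%. These 4 were *Atf3*, *Jun* (1417409_at), *Junb* and *Fosb*. Without WT replicate 1 the count of lower probe sets was 8 of 11, with 6.88% over all probe sets. It was 5 without WT replicate 2 and 3 without WT replicate 3, with 3.61% and 5.2% over all probe sets. In 5 of the 11, from 4 genes, both mutants lay below every WT mouse, beside 15.1% of all tested probe sets. A Cyber-T style test, after the program that the study's methods name for another set of arrays, called 0 of the 11 after adjustment with a pooled prior. With a prior for each group, a version added after the data were seen, it called *Atf3*, *Jun* (1417409_at) and *Junb* (adjusted p = 0.0236, 0.00827 and 0.0333 by the Cyber-T style test), together with 441 of all 27022 probe sets.

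**Figure D3:**
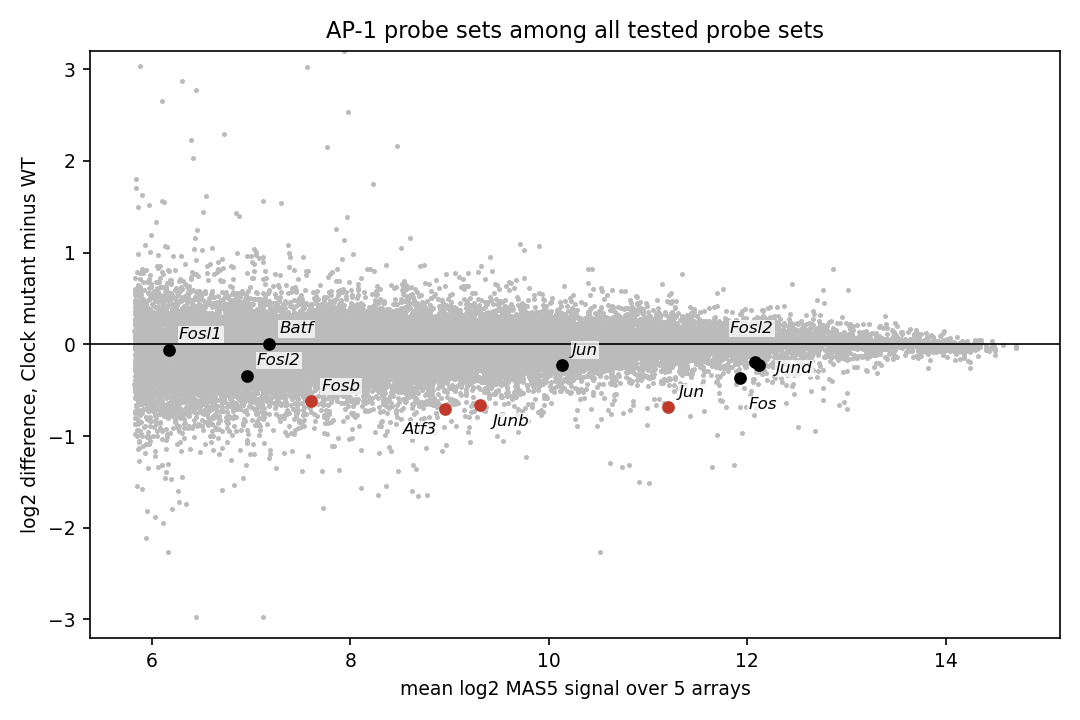
Log2 difference between *Clock* mutant and WT skin (vertical axis) against the mean log2 MAS5 signal over the 5 arrays (horizontal axis) for 27022 tested probe sets (grey; 3 lie outside the vertical axis), with the 11 AP-1 probe sets as large points, red where the unadjusted p was under 0.05. All large points but *Batf* lie below 0, and the 4 red ones lie at -0.71 to -0.62 inside or at the lower edge of the grey cloud.

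Across the family, the order of the mice varied. *Clock* mutant replicate 1 was the lowest of the 5 for 6 of the 11 probe sets, beside 30.2% of all tested probe sets, and WT replicate 3 was the highest for 7, beside 20.2%. Exceptions include *Junb*, highest in WT replicate 1, and *Fosl1*, lowest in WT replicate 3. Over these 4 lowest probe sets, *Atf3*, *Jun* (1417409_at), *Junb* and *Fosb*, the median distance from the WT mean was -0.92 in *Clock* mutant replicate 1 and -0.41 in replicate 2, against -0.12, -0.11 and 0.22 in WT replicates 1, 2 and 3. Those 4 were picked by their unadjusted p on these same arrays, so a gap between the groups follows from the choice. Over all 11 the mutants were alike, at -0.29 and -0.28, against -0.15, -0.05 and 0.19 in WT replicates 1, 2 and 3. WT mice varied more in AP-1 genes than in most genes: the median SD over the 3 WT arrays was 0.22 on the log2 scale for the 11 probe sets and 0.13 for all tested probe sets. *Clock* mutant replicate 1 was also the male and the array with the high growth-phase hair genes and the control ratio of 54.1. WT replicate 3 had the highest transferrin receptor ratio. The part of these traits in the AP-1 values was not tested. Among the 4 female mice *Jun* (1417409_at), *Junb* and *Atf3* were at -0.47, -0.36 and -0.57, with unadjusted p-values by limma of 0.0214, 0.0411 and 0.0157, a fit that has 1 mutant and assumes for it the spread of the WT mice.

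The member with the widest range over the arrays was *Jun* at 1417409_at (1.17 on the log2 scale). Of 12946 other genes, the 3 whose centred log2 values were closest to it over the 5 arrays were *Zfp493*, *Lama1* and *Tsc22d3*, with root mean square differences of 0.046, 0.049 and 0.059. *Tsc22d3*, a leucine zipper gene widely used as a readout of glucocorticoid action, had intensities of 5276 and 6652 in the mutants and 8092, 9470 and 10625 in WT skin. *Lama1*, a laminin chain of basement membranes, and *Zfp493*, a zinc finger gene, were dim, at 76.9 to 157.7 and 38.9 to 83.1. With 5 arrays and 12946 genes compared, close matches are a description of these mice only.

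Of the other bZIP genes, which include dimer partners of AP-1 and the related Maf, ATF and CNC factors, 9 of the 11 tested had a negative difference and 0 passed the adjusted threshold. The median was -0.13. *Nfe2l2*, which encodes the antioxidant regulator NRF2, had the largest difference, at 2193 and 2219 in the mutants and 2720, 3019 and 3265 in WT skin (difference -0.44, SE 0.0939, unadjusted p = 0.00112, adjusted p = 0.191 by limma). *Maff*, a small Maf protein, came next at -0.35 (adjusted p = 0.545). *Batf3* and *Atf7* had the positive differences of the list, at 0.21 and 0.19.

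The listed kinases and factors upstream of AP-1 genes were more often higher than lower in the mutants, by small amounts. Of the 16 tested 6 had a negative difference, 0 passed the adjusted threshold and the median was 0.10. *Map2k4*, a kinase that activates JNK, had the smallest p, with 2157 and 1941 in the mutants and 1690, 1775 and 1736 in WT skin (difference 0.24, SE 0.0878, adjusted p = 0.392 by limma), followed by *Elk3*, a ternary complex factor of SRF (0.29, adjusted p = 0.455). *Creb1*, whose product binds cAMP response elements, was at 847.4 in *Clock* mutant replicate 1 and at 1285 to 1330 in the other 4 mice. *Srf* overlapped between the groups, at 833.8 and 555.1 in the mutants and 774.0 to 846.9 in WT skin.

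Known AP-1 target genes were split in direction. Of the 14 tested 7 had a negative difference, 0 passed the adjusted threshold and the median was -0.03. The other listed targets, *Mmp10*, *Mmp13*, *Plau*, *Il6*, *Sprr1b* and *Lce3c*, were too dim to test. At an unadjusted p under 0.05, 3 were lower (*Krt6a*, *Vegfa* at -0.39 and *Cd44* at -0.19) and 1, *Mmp9*, was higher. Over all tested probe sets the shares were 6.71% lower and 4.09% higher. *Mmp9*, a gelatinase, was higher, at 414.4 and 335.8 in the mutants and 253.6 to 282.4 in WT skin (difference 0.47, SE 0.152, adjusted p = 0.362 by limma). *Krt6a*, a keratin of the companion layer and of wounded epidermis, was lower, at 5545 and 6904 against 7218 to 8006 (difference -0.28, SE 0.0995, adjusted p = 0.376 by limma). The cornified envelope genes *Lor*, *Ivl* and *Sprr1a* differed by -0.08, -0.07 and -0.07. For comparison, the 9 negative-limb clock genes and clock outputs, direct or indirect targets of CLOCK, had a median of -0.69, and 2 of them, *Per3* and *Per2*, fell past the adjusted threshold (adjusted p = 0.0144 and 0.0321 by limma), a count of 0 to 4 when single mice were left out. *Nr1d1*, which encodes the repressor REV-ERBα, had the 1 positive difference of that list (0.65, adjusted p = 0.2 by limma), and the other 8 genes were lower at an unadjusted p under 0.05.

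**Figure D4:**
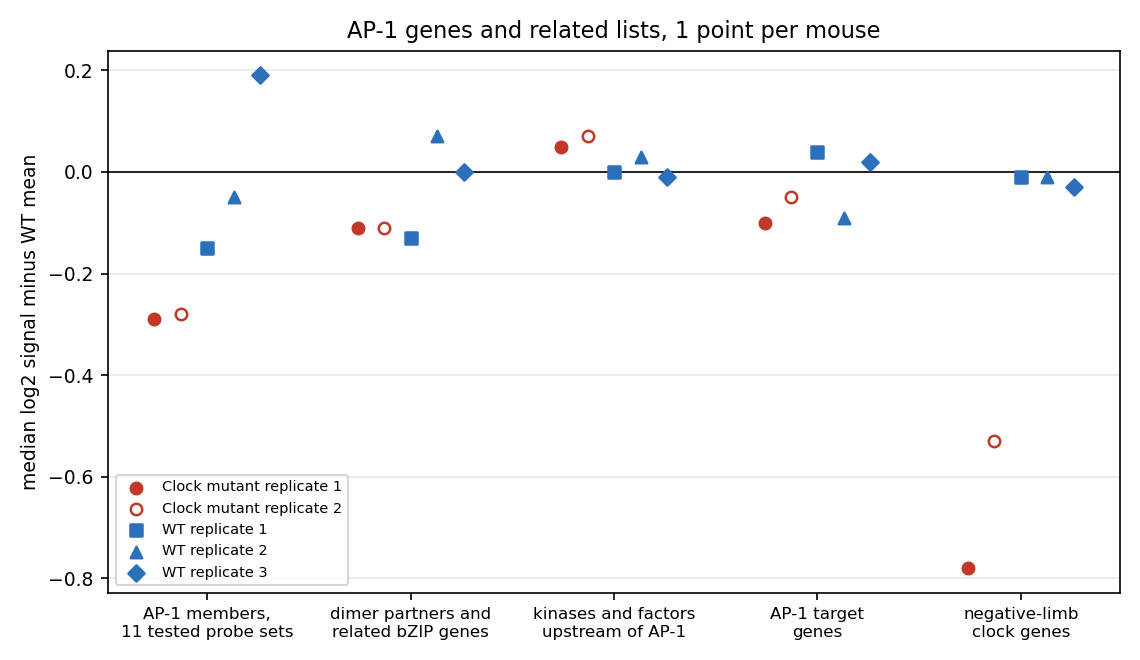
Median log2 signal minus the WT mean (vertical axis) over the 11 tested AP-1 probe sets and over the genes of 4 related lists (horizontal axis), with 1 point per mouse; red circles are *Clock* mutant arrays (filled, replicate 1) and blue symbols are WT arrays. The AP-1 medians are -0.29 and -0.28 in the mutants and -0.15 to 0.19 in WT skin, while the medians of upstream kinases and factors and of AP-1 target genes all lie between -0.10 and 0.07.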

How the data were processed

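RNA from dorsal skin was hybridised to Affymetrix arrays, 1 per mouse. The signal intensity values were deposited by the authors and made with MAS5 per the labels, with a single scaling factor per array (2% trimmed mean 500.0 on each). Neither detection calls nor raw scans were used here. Of 45101 probe sets, 64 controls were left out. Symbols came from the platform annotation, in which 34945 probe sets had 1 symbol, 932 several and 9160 none. Intensities under 1 were set to 1 (2441 values) and log2 was taken. Probe sets under the 40th percentile of mean log2 intensity were left out. *Clock* mutant and WT arrays entered a limma fit (version 3.58.1, R 4.3.3, eBayes with an intensity trend, 6.04 prior degrees of freedom), and p-values were adjusted by the Benjamini-Hochberg method across the 27022 probe sets that remained. Pearson correlations of log2 intensity between arrays were 0.950 to 0.960, and precision is limited by having 5 arrays. The fit was also run on simulated arrays with independent normal noise at each probe set and no effect of array or sex. The outcome is not given here, so that run is no check on the calls above.

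The members and lists were chosen with earlier results of these data known. The lists hold 13 other bZIP genes, 19 kinases and factors, 20 target genes and 9 clock genes, at each gene's brightest tested probe set. Named genes are all members, list genes past the adjusted threshold or otherwise the 2 with the smallest p, and the 3 nearest to the widest-ranging member. *Batf3*, *Atf7*, *Vegfa*, *Cd44*, *Nr1d1*, *Creb1*, *Srf*, *Lor*, *Ivl*, *Sprr1a* and the markers were named after their values were seen. The motifs were chosen after the promoters were read. The alternatives left out each mouse in turn, blocked on replicate number, averaged the probe sets of a gene, added 32 before log2, dropped or raised (to the 60th percentile) the filter, dropped the trend or made the prior robust, centred arrays on the median or normalized them by quantiles, or used Cyber-T style tests (window 101, prior weight 10).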

Additional observations from a re-analysis of the deposited data

How the results depend on the processing

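Over the alternatives, *Jun* (1417409_at), *Junb* and *Atf3* kept a negative difference at an unadjusted p under 0.05 in each of 15 settings, at -0.91 to -0.47, -0.96 to -0.36 and -0.85 to -0.57. *Fosb*, at -0.93 to -0.31, did so in 12 of 14. The mean over both *Jun* probe sets was -0.46. The exceptions for *Fosb* were the fits without *Clock* mutant replicate 1 (unadjusted p = 0.181 by limma) and without WT replicate 3 (unadjusted p = 0.0624). *Fosl1* turned positive after quantile normalization (0.07) and median centring (0.03), and ranged from -0.22 to 0.08 when single mice were left out. *Batf* ranged from -0.03 to 0.03 when single mice were left out. Leaving out single WT mice gave 0 AP-1 probe sets and 0 to 2 clock genes past the adjusted threshold by limma. In those fits 3 to 8 AP-1 probe sets were lower at an unadjusted p under 0.05, beside 3.61% to 6.88% of all tested probe sets. These counts do not cover the fits that left out a mutant, which have 1 mutant left. In them *Junb* moved most in size, to -0.36 without *Clock* mutant replicate 1 and to -0.96 without *Clock* mutant replicate 2. The clock gene count was 1 without a filter, 0 without an intensity trend and 4 by the Cyber-T style test. With a prior for each group, added after seeing the data, that test called 3 AP-1 probe sets, 1 other bZIP gene and 9 clock genes. The cause of these changes was not tested. Over all probe sets the adjusted calls numbered 24 in the main analysis, 0 without an intensity trend, without WT replicate 2 or without WT replicate 3, 10 without a filter, 87 by the Cyber-T style test with a pooled prior, 106 with the replicate block and 239 without *Clock* mutant replicate 2. The groups share replicate numbers 1 and 2, but nothing in the labels ties the same numbers to a litter or day. Deviations of same-numbered mice correlated at 0.008 and 0.099, and those of the other pairs at -0.099 to 0.08. With 2 mutants, their deviations from the group mean mirror each other, so these values cannot decide whether the mice were paired. The replicate block drops WT replicate 3 from the comparison. With it, 4 AP-1 probe sets were lower at an unadjusted p under 0.05 by limma, beside 6.61% of all tested probe sets, and the AP-1 median was -0.217. *Fosl1* and the dim *Fosl2* probe set had the widest errors among the members (SE 0.278 and 0.244), and 5 arrays cannot separate sex from genotype in *Clock* mutant replicate 1.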
